A study of Mus musculus with 6 samples.

Results

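Chemokines are small secreted proteins that guide white blood cells, and chemokine receptors are the multi-span membrane proteins that read them through inhibitory G proteins. The families are named for the spacing of the first cysteines of the ligand (CC, CXC, XC and CX3C), and a ligand gene ends in l and a receptor gene in r. In bone marrow, CXCR4 and its ligand CXCL12 hold stem cells and myeloid progenitors in place, CCR2 lets monocytes leave for the blood, and CCL3 and CCL4 are made by activated macrophages, CCL3 acting on CCR1 among others.

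The genes described here are 56 rows of a table of read counts whose symbol is that of a chemokine ligand (38 genes) or chemokine receptor (18 genes), chosen by name and not by value from 33924 rows. The counts come from RNA sequencing of mouse acute myeloid leukaemia cells in 2 groups of 3 libraries. One group (LSK 44, LSK 45 and LSK 46) was derived from LSK cells, a stem cell-rich marrow fraction defined by Sca-1 and Kit and the lack of lineage markers. The other (GMP 5, GMP 11 and GMP 19) was derived from granulocyte-macrophage progenitors. All 6 carried MLL-AF9, a fusion oncogene delivered by retrovirus, and the labels give no treatment beyond it and no age. Per the labels' protocols, immortalised cells had been put into lethally irradiated C57BL/6 mice together with wild-type marrow, and leukaemia cells taken from the marrow of moribund mice were then kept in medium with serum, SCF, IL-3 and IL-6. The transplanted cells are described as GFP-positive, and no sort of the harvested cells is stated, so cells of the host or of the support marrow could be present. Nothing in the labels ties the libraries to separate mice or transductions, so the p-values reflect spread among libraries that may be technical. Per the series title, the study asked how the cell of origin bears on readiness for apoptosis and on inhibition of the histone demethylase LSD1.

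Total counts ran from 16640929 (LSK 44) to 33885428 (GMP 11) per library, so that 3 counts, roughly the 95% upper limit on the expected count of a gene listed at 0, amount to 0.180 and 0.0885 CPM (counts scaled to a total of 1e6). That limit covers counting error alone and cannot be used for near-identical copies such as Ccl21a, Ccl21b and Ccl21c or Ccl27b, whose shared reads may not have been counted. Expression is given below as CPM scaled by TMM (trimmed mean of M values, which evens out library composition). Differences are log2 fold changes of LSK-derived minus GMP-derived with an approximate standard error, tested with edgeR's quasi-likelihood test and adjusted over 13406 tested genes by the Benjamini-Hochberg method. Genes with an adjusted p below 0.05 were called. Values given for single libraries stand in the order LSK 44, LSK 45, LSK 46 and GMP 5, GMP 11, GMP 19. In bulk RNA, fewer cells that express a gene and less RNA per cell cannot be told apart.

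Of the 56 genes, 18 had 0 counts in all libraries, 22 had counts too low to be tested, and 16 were tested (9 ligands and 7 receptors). Of these, 7 were called, against 25.7% of all tested genes. Cx3cl1, Cx3cr1 and Ccr7 were higher in the LSK-derived libraries (background 11.8%), and Ccl3, Ccl4, Cxcl10 and Ccr1 were higher in the GMP-derived ones (background 13.9%). The groups did not overlap for 11 of the 16, where the share over all tested genes was 45.4%. The median log2 fold change was -0.41 for the tested chemokine and receptor genes and 0.01 for all tested genes, and the median absolute change was 1.36 and 0.25. Only 10 of the 16 were at or above the filter's level of 0.400 CPM in all 6 libraries. Another 4 (Cx3cl1, Cx3cr1, Ccr7 and Cxcr5) were so in all 3 LSK-derived libraries but not in all GMP-derived ones. A further 1 (Cxcl10) was so in all 3 GMP-derived libraries alone. The low-count filter itself thus favours genes that differ. Leaving out a library in turn gave between 1 and 3 genes higher in the LSK-derived libraries (1 without GMP 19, and 2 without LSK 44, LSK 45, LSK 46 or GMP 11) and between 3 and 5 higher in the GMP-derived ones.

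**Figure D1:**
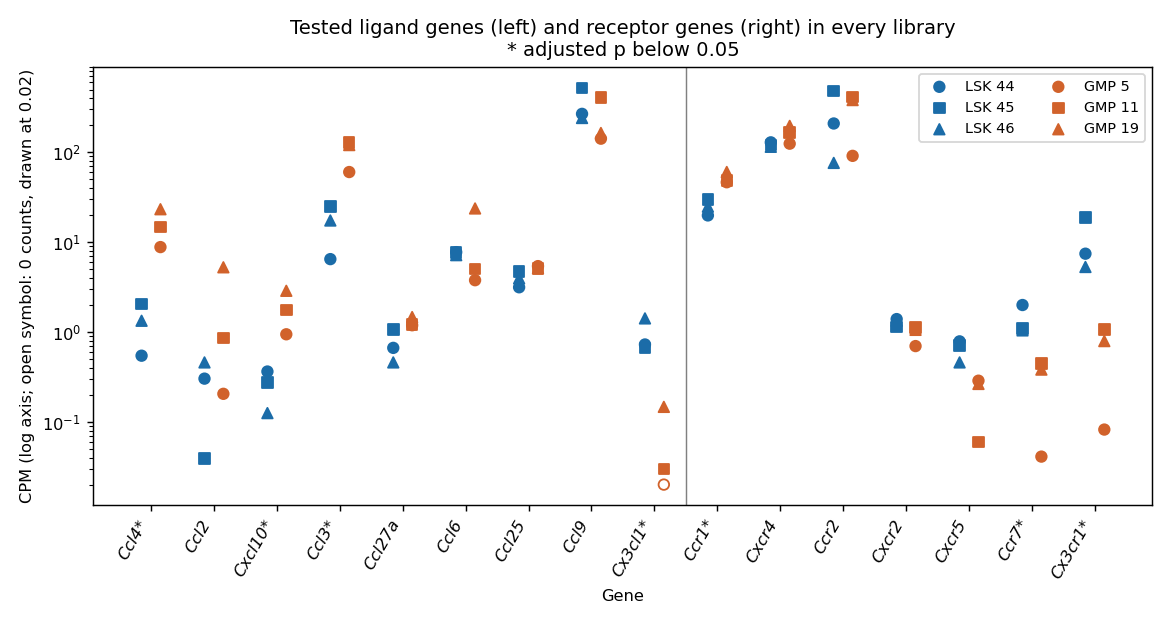
CPM (log axis) of the 9 tested ligand genes and 7 tested receptor genes in each library, blue for LSK-derived and orange for GMP-derived, with an asterisk on the 7 genes called. The libraries of the 2 groups lie apart for Ccl3, Ccl4, Cxcl10 and Ccr1 (orange above) and for Cx3cl1, Cx3cr1 and Ccr7 (blue above), while Ccr2 and Ccl9 spread widely within both groups.

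Among ligands, the inflammatory CC chemokine genes Ccl3 and Ccl4, which encode MIP-1alpha and MIP-1beta, were several-fold higher in the GMP-derived leukaemias. Ccl3 was at 6.47, 24.96 and 17.4 CPM over the LSK-derived libraries, and at 60.3, 128 and 120.4 CPM over the GMP-derived set. Every GMP-derived library was above every LSK-derived one, and LSK 44 was the lowest. The means were 16.3 ± 9.30 and 103 ± 37.1 CPM (SD, n = 3 each), a 6.25-fold difference (log2 fold change -2.64 ± 0.51, edgeR adjusted p = 0.0142). The call of Ccl3 was lost without LSK 46 (adjusted p = 0.0628) or GMP 19 (0.0521) and with no low-count filter (0.0596), in a range from 1.49e-04 over 12 alternatives.

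Ccl4 was at 0.544, 2.04 and 1.33 CPM over the LSK-derived libraries, and at 8.81, 14.8 and 23.2 CPM over the GMP-derived set. The groups did not overlap, and LSK 44 was again the lowest library. The difference was 11.6-fold (means 1.31 ± 0.749 and 15.6 ± 7.26 CPM, log2 fold change -3.54 ± 0.54, edgeR adjusted p = 0.00643) and was called in all 12 alternatives. In the order of protein-coding genes in RefSeq, Ccl5, Ccl9, Ccl6, Ccl3 and Ccl4 follow each other with no other gene between them. In RefSeq the span of Ccl4 also reaches over that of Ccl3, although exons of the pair do not overlap in GENCODE. The 2 called genes of this cluster are its last, and Ccl9 and Ccl6 beside them were not called, while Ccl5, the T cell chemokine RANTES, had 7 counts in all.

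Cxcl10, an interferon-induced ligand that attracts T cells through CXCR3, was higher in the GMP-derived libraries at a low level. Its CPM was 0.363, 0.275 and 0.125 over the LSK-derived libraries, from 6, 7 and 3 counts, and 0.943, 1.75 and 2.87 over the GMP-derived set, from 23, 59 and 98 counts. All GMP-derived libraries were higher. The difference was 7.47-fold (log2 fold change -2.90 ± 0.55, edgeR adjusted p = 0.0112), and it was called in all 12 alternatives. Cxcl10 exons overlap exons of Art3 on the other strand in GENCODE. Of its close relatives, Cxcl9 had 1, 0 and 1 counts over the LSK-derived libraries, and 10, 1 and 6 over the GMP-derived set, and Cxcl11 had 0 counts. Its receptor gene Cxcr3 had 21 counts, 14 of them in GMP 19.

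Cx3cl1, which encodes the membrane-bound ligand fractalkine, was the ligand gene called in the other direction. It was at 0.726, 0.667 and 1.42 CPM over the LSK-derived libraries, from 12, 17 and 34 counts, and had 0, 1 and 5 counts over the GMP-derived set (at most 0.147 CPM). All LSK-derived libraries were higher, although at about 1 CPM or less on average (mean 0.936 ± 0.417 against 0.0588 ± 0.0775 CPM). The fitted log2 fold change was 3.79 ± 0.74 (edgeR adjusted p = 0.0121, called in all 12 alternatives). It rests on 6 counts in the lower group, and became 5.42 without GMP 19. Its neighbours Ccl22 and Ccl17, which attract T cells through CCR4, had 1 and 17 counts in all and were not tested.

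Cx3cr1, the only receptor for fractalkine and a gene of monocytes and microglia, was higher in the LSK-derived libraries by a log2 fold change within error of that of Cx3cl1. It was at 7.44, 18.8 and 5.29 CPM over the LSK-derived libraries, and at 0.0820, 1.07 and 0.792 CPM over the GMP-derived set. The groups did not overlap, LSK 45 was the highest library, and GMP 5 the lowest with 2 counts. The difference was 15.6-fold (means 10.5 ± 7.26 and 0.647 ± 0.509 CPM, log2 fold change 3.97 ± 0.82, edgeR adjusted p = 0.0168). It was 3.24 without LSK 45, and the call was lost without GMP 19 (adjusted p = 0.0665) and with no low-count filter (0.0502), in a range from 1.36e-07 over 12 alternatives. Both genes of the CX3C family were called higher in the LSK-derived libraries. Both reached the filter's level in all libraries of that group but not in all GMP-derived ones.

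Beside Cx3cr1, markers of monocytes and macrophages were counted. Of 8 tested markers of 17 listed, 2 were higher in the LSK-derived libraries (Mertk and Mrc1) and 0 in the GMP-derived ones, a share near the 25.7% of all tested genes. The summed level of the list was 731 to 1297 CPM in the LSK-derived libraries and 475 to 999.9 CPM in the other group, and most of it was Ly6c2 alone, at 636 to 1155 CPM against 293 to 874 CPM. Emr1, which encodes a macrophage surface antigen, had a mean of 23.2 CPM against 89.4 CPM, and Cd68, a lysosomal protein gene of macrophages, 63.3 against 33.0 CPM with no overlap of the groups, and neither was called. Of the complement genes of tissue macrophages, which were not tested, C1qa had 4 and 1 counts, C1qc 6 and 1, and C1qb 35 and 6, with every LSK-derived library above every GMP-derived one for C1qb. Csf1r, the receptor for macrophage colony-stimulating factor, was at 10.6, 21.9 and 4.96 CPM over the LSK-derived libraries, and at 2.71, 14.2 and 28.3 CPM over the GMP-derived set. It was thus highest in LSK 45 within the LSK-derived group, as was Cx3cr1. The part of these markers in the result was not tested.

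Among receptors, Ccr1, a receptor for CCL3 and several other CC chemokines, was higher in the GMP-derived leukaemias. It was at 19.8, 29.9 and 24.9 CPM over the LSK-derived libraries, and at 46.4, 48.3 and 60.4 CPM over the GMP-derived set. All GMP-derived libraries were above all LSK-derived ones. The difference was 2.07-fold (means 24.9 ± 5.03 and 51.7 ± 7.59 CPM, log2 fold change -1.05 ± 0.17, edgeR adjusted p = 0.00659), and it was called in all 12 alternatives. It was not called in a test against a minimum change of 1.5-fold.

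Ccr1 and Ccr2 lie in 1 cluster of receptor genes with Ccr9, Cxcr6, Xcr1 and Ccr3 in RefSeq order, with at most 1 other protein-coding gene between neighbours. Of these, Ccr1 and Ccr2 were tested, and Ccr2 was not called.

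Ccr7, which guides dendritic cells and lymphocytes to lymph nodes, was higher in the LSK-derived libraries at a low level. It was at 2.00, 1.10 and 1.04 CPM over the LSK-derived libraries, and at 0.0410, 0.445 and 0.381 CPM over the GMP-derived set. The groups did not overlap, and GMP 5 had 1 count. The difference was 4.44-fold (log2 fold change 2.15 ± 0.61, edgeR adjusted p = 0.0418), and the call was lost without any LSK-derived library (adjusted p = 0.136 without LSK 44, 0.0671 without LSK 45 and 0.0862 without LSK 46), without GMP 11 (0.0661) and without GMP 19 (0.0911), in a range from 0.0199 over 12 alternatives. Its ligand genes Ccl19, Ccl21a, Ccl21b and Ccl21c had 0 counts in all libraries.

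Markers of the cells that carry CCR7 were counted beside it. Of 5 tested dendritic cell markers, chemokine receptors left out, 1 was higher in the LSK-derived libraries (Flt3, a receptor also found on early progenitors). The summed level was 128 to 179 CPM against 68.0 to 154 CPM, and most of it was Irf8, Flt3 and Bst2. Of the defining markers, Xcr1 and Zbtb46 had 28 and 14 counts in all. Siglech, the defining marker that was tested, was at 2.54, 2.04 and 1.00 CPM over the LSK-derived libraries. It was at 0.164, 1.01 and 1.03 CPM over the GMP-derived set and was not called (log2 fold change 1.29, edgeR adjusted p = 0.174). Of 5 tested T and NK cell markers, 1 was higher in the LSK-derived libraries (Klrb1c), and Cd3e and Ncr1 had 0 counts. The sums of that list were 36.9 to 47.2 CPM against 13.3 to 72.0 CPM, mostly from Cd28, Thy1 and Lck. Of 3 tested B cell markers, Cd79b was higher in LSK-derived and Igll1 in GMP-derived cells, with sums of 15.2 to 22.3 CPM against 4.55 to 14.0 CPM, and Ms4a1 had 0 counts. The part of these cells in the result for Ccr7 was not tested.

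Markers of mast cells, basophils and eosinophils were counted as well. Of 7 tested markers of 14 listed, 3 were higher in the LSK-derived libraries (background 11.8%) and 0 in the GMP-derived ones (background 13.9%). The sums were 105 to 178 CPM against 31.9 to 161 CPM (the eosinophil receptor gene Ccr3 left out). Gata2 was the largest single part in each LSK-derived library, at 64.5, 60.1 and 108 CPM, and was not called. Ms4a2 and Siglec5 were not called either (log2 fold changes 0.29 and -0.34). The eosinophil granule genes Epx and Prg2 were at 22.1, 2.63 and 10.8 CPM and at 29.8, 4.51 and 15.5 CPM over the LSK-derived libraries, against at most 0.0820 and 1.31 CPM in any GMP-derived library (edgeR adjusted p = 0.00566 and 0.0186). The basophil protease gene Mcpt8 was at 30.6 against 13.1 CPM (edgeR adjusted p = 0.00153). Cpa3, a mast cell protease gene, was at 88.5 CPM in GMP 5 and at most 2.87 CPM elsewhere. Ccr3 itself had 5 and 1 counts, Mcpt4 had 0, and the part of these cells in the chemokine and receptor results was not tested.

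**Figure D2:**
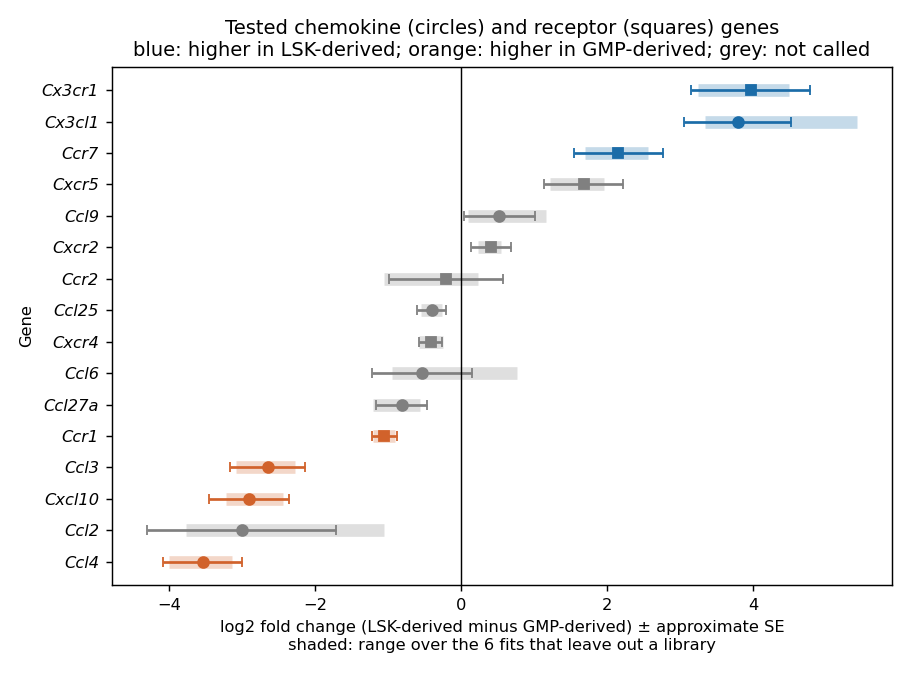
Log2 fold change (LSK-derived minus GMP-derived, x axis) of each tested ligand gene (circle) and receptor gene (square), with its approximate standard error and, shaded, the range over the 6 fits that leave out a library. Cx3cr1 at 3.97 and Ccl4 at -3.54 stand at the ends, and the shaded range crosses 0 for Ccr2 and Ccl6.

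The sequence just before the start of a chemokine gene holds many of the sites through which inflammatory signals act on it, so the 250 bases before the RefSeq start (build GRCm38.p6) are shown for the 5 called genes with an entry in the RefSeq promoter table. They lie at chr11:83649379-83649628 (Ccl3), chr9:123968693-123968942 (Ccr1), chr5:92348890-92349139 (Cxcl10) and chr9:120068297-120068546 (Cx3cr1) on the minus strand and at chr8:94771930-94772179 (Cx3cl1) on the plus strand. They are written 5′ to 3′ on the strand of the gene, and capitals mark matches to any of 5 motifs searched on both strands.
Ccl3: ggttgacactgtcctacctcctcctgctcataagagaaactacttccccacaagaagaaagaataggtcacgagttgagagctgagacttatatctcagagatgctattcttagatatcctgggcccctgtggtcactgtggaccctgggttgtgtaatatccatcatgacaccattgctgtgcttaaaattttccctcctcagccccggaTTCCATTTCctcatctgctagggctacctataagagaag
Ccr1: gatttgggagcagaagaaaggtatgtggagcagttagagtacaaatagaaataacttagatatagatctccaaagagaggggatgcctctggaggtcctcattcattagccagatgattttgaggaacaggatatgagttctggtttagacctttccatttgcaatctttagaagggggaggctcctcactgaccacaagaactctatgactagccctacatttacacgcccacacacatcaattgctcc
Cxcl10: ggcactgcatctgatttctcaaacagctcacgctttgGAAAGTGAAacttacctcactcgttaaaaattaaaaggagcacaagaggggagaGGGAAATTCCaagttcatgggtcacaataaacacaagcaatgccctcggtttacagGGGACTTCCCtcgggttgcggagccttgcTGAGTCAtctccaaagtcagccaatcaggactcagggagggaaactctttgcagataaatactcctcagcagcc
Cx3cl1: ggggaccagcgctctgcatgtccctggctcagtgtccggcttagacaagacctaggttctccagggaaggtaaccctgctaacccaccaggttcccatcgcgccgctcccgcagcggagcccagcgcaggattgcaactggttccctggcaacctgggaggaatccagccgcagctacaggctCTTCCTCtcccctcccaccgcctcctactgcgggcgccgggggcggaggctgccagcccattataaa
Cx3cr1: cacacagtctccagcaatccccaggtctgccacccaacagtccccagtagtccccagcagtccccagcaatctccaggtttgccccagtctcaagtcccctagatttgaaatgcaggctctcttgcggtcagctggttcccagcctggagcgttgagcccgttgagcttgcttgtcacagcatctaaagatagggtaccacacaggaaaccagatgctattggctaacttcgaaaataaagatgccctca
The motifs were the consensus of NF-kB (the kB site), TGANTCA (AP-1), GAGGAAG (the ETS factor PU.1), TTGCNNAA (C/EBP) and GAAANNGAA (interferon regulatory factors). The last was shortened by 1 base after a first search, so it can match more windows. The 5 motifs were held by 3.90%, 6.75%, 10.6%, 9.56% and 7.13% of all 32851 windows of 250 bases in the table. Cxcl10, higher in the GMP-derived libraries, held 2 kB matches (GGGAAATTCC, 159 to 150 bases before the start, and GGGACTTCCC, 103 to 94), 1 AP-1 match (TGAGTCA, 74 to 68) and 1 interferon regulatory factor match (GAAAGTGAA, 213 to 205). No 2 of these matches overlapped. The window of Cx3cl1 held 1 PU.1 match on the opposite strand (67 to 61 bases before the start). That of Ccl3 held 1 interferon regulatory factor match on the opposite strand (39 to 31), and those of Ccr1 and Cx3cr1 held 0 of the 5. Of the 40 chemokine and receptor genes with a window, 8 held a kB match, among them Cxcl1, Cxcl2 and Cxcl3, which had at most 1 count each here. Ccl9, which was not called, held a kB match on the opposite strand (35 to 26 bases before the start) and an AP-1 match (53 to 47). A match is a string of letters and not a measured binding site.

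Most ligand counts came from Ccl9, which encodes the myeloid chemokine MIP-1gamma, a ligand of CCR1. It made up 88.0% to 92.8% of all ligand CPM in LSK-derived cells and 47.0% to 72.2% in GMP-derived cells. Ccl9 was at 268, 518 and 241 CPM over the LSK-derived libraries, and at 142, 409 and 164 CPM over the GMP-derived set. The groups overlapped, LSK 45 and GMP 11 were the high libraries, and the gene was not called (log2 fold change 0.52 ± 0.49, edgeR adjusted p = 0.474; 1.16 without GMP 11).

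Per kilobase of annotated exon, a scale meant for comparing genes, the leading ligand differed between the groups. The level of Ccl9 per kilobase was above that of Ccl3 in all 3 LSK-derived libraries (88.0 against 8.45 in LSK 44, 170.1 against 32.6 in LSK 45 and 79.2 against 22.7 in LSK 46, in CPM per kilobase). It was below that of Ccl3 in all 3 GMP-derived libraries (46.6 against 78.8 in GMP 5, 134 against 167 in GMP 11 and 53.9 against 157 in GMP 19). Ccl4 and Ccl6 likewise changed places. Ccl6 was higher per kilobase in all 3 LSK-derived libraries (means 4.19 against 1.98 CPM per kilobase), and Ccl4 in all 3 GMP-derived ones (23.6 against 6.04). The order rests on exon lengths of GENCODE M21, which belongs to another build than the counts. Each length joins the exons of all annotated transcripts (3045 bases for Ccl9 and 766 for Ccl3), and the transcripts present were not determined. A shorter Ccl9 transcript would raise its level per kilobase and could undo the order in the GMP-derived libraries. By CPM alone, Ccl9 was above Ccl3 in all 6 libraries.

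**Figure D3:**
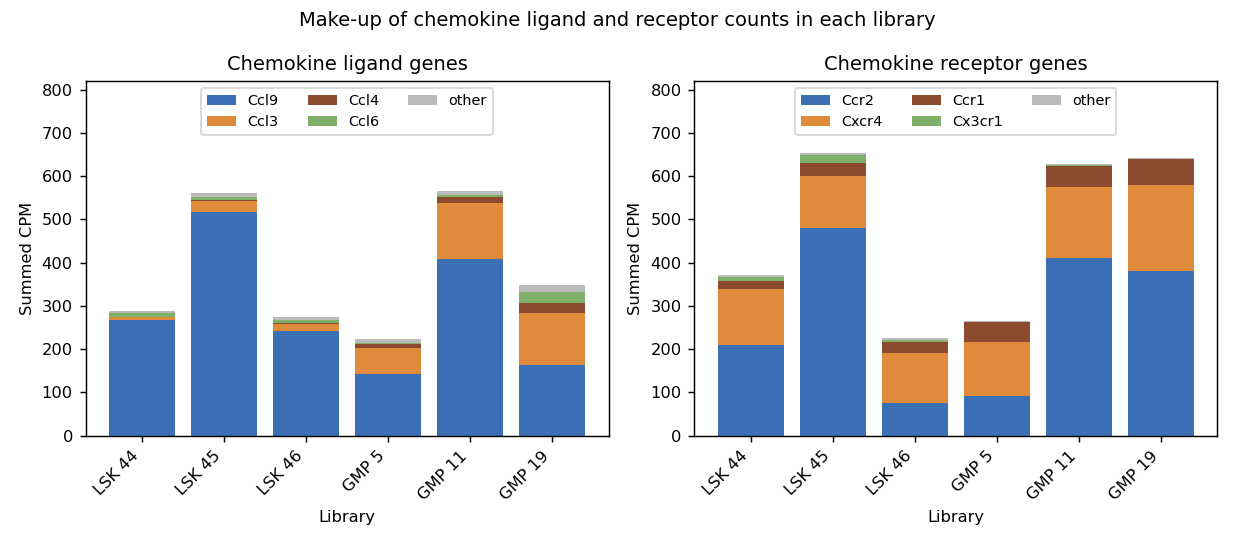
Summed CPM of the 38 ligand genes (left) and 18 receptor genes (right) in each library, stacked by gene. Ccl9 makes up most of the ligand sum in the LSK-derived libraries and a smaller share in the GMP-derived ones, where Ccl3 adds 60.3 to 128 CPM, and Ccr2, Cxcr4 and Ccr1 make up 95.9% to 99.5% of the receptor sum.

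The other tested ligands were not called. Ccl6, a CC chemokine of myeloid cells, was at 7.74, 7.65 and 7.16 CPM over the LSK-derived libraries, and at 3.77, 5.05 and 23.7 CPM over the GMP-derived set. GMP 19 was far above the other libraries, and its log2 fold change of -0.53 (edgeR adjusted p = 0.605) became 0.77 without it (adjusted p = 0.0509). Ccl2, the monocyte attractant MCP-1 and ligand of CCR2, showed the same library on top, with 0.302, 0.0392 and 0.458 CPM over the LSK-derived libraries, and 0.205, 0.861 and 5.25 CPM over the GMP-derived set. Its log2 fold change was -3.01 ± 1.29 (edgeR adjusted p = 0.138), or -1.06 without GMP 19 and -3.77 without LSK 46, and DESeq2 called it (adjusted p = 0.0376, in a range up to 0.470). Ccl7, a further ligand of CCR2 and the neighbour of Ccl2, had 64 counts in all, of which 57 were in GMP 19.

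GMP 19 also stood apart in some genes of neutrophils. S100a9 was at 195 CPM and Ngp at 129.8 CPM there, against at most 20.1 and 16.4 CPM in the other libraries, and Retnlg had counts in GMP 19 alone (22). Of 10 tested neutrophil markers of 13 listed, 2 were higher in the LSK-derived libraries (Ly6g and Padi4) and 4 in the GMP-derived ones, with summed levels of 212 to 322 CPM against 39.5 to 651 CPM. Col1a1, a stromal collagen gene, was at 1.47 CPM in GMP 19 and at most 0.237 CPM elsewhere. Their part in the levels of Ccl2, Ccl6 and Ccl7 was not tested.

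Ccl25, which draws T cell progenitors to the thymus, was at 3.15, 4.71 and 3.96 CPM over the LSK-derived libraries, and at 5.41, 5.11 and 5.13 CPM over the GMP-derived set. Ccl27a, a skin-homing chemokine, was at 0.665, 1.06 and 0.458 CPM and at 1.19, 1.22 and 1.47 CPM in the same order of libraries. Both were higher in every GMP-derived library without being called (log2 fold changes -0.40 and -0.81, edgeR adjusted p = 0.180 and 0.126). Exons of Ccl25 overlap exons of Elavl1, and those of Ccl27a exons of Il11ra1, on the other strand in GENCODE. Without a known strand setting, reads of such pairs cannot be told apart, and Ccl27a has a near-identical copy, Ccl27b, listed at 0.

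Ccr2, Cxcr4 and Ccr1 carried nearly all receptor counts. Cxcr4, the receptor for the marrow chemokine CXCL12, was at 129, 121 and 115 CPM over the LSK-derived libraries, and at 125, 165 and 197 CPM over the GMP-derived set. GMP 5 lay among the LSK-derived libraries and the other GMP-derived ones above them. The difference of 1.33-fold was not called (log2 fold change -0.41 ± 0.16, edgeR adjusted p = 0.101), but it was without GMP 5 (-0.58, adjusted p = 0.0138), with DESeq2 (0.0495) and with sample weights in limma voom (0.0413), in a range up to 0.254. Cxcl12 itself had 0 counts in the LSK-derived libraries and 2, 3 and 3 over the GMP-derived set. The stromal and endothelial markers, a source of CXCL12 in marrow, summed to 189.9 to 332 CPM in LSK-derived and 147 to 227 CPM in GMP-derived cells with Cxcl12 left out, with Col1a2 at 0 counts and Pdgfra at 1. Most of that sum was Pecam1, which blood cells also express (189 to 325 against 114 to 190.0 CPM). Pdgfrb added 36.4, 14.0 and 30.3 CPM over the GMP-derived set. Of 3 tested, Pdgfrb was higher in GMP-derived cells (2.63 against 26.9 CPM, edgeR adjusted p = 0.0206), and their part in the counts of Cxcl12 was not tested.

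Ccr2, the receptor for CCL2 that marks monocytes, varied widely within both groups. It was at 209, 479.9 and 76.2 CPM over the LSK-derived libraries, and at 91.4, 411 and 382 CPM over the GMP-derived set. LSK 46 and GMP 5 were low and the ranges overlapped almost wholly. Its log2 fold change of -0.21 ± 0.78 (edgeR adjusted p = 0.871) ran from -1.05 without LSK 45 to 0.23 without LSK 46, so no direction can be given. The highest library was 6.30 times the lowest in LSK-derived and 4.50 times in GMP-derived cells, against 1.12 and 1.58 times for Cxcr4. Csf1r, Ly6c2 and Cd14 also had their lowest levels within each group in LSK 46 and GMP 5. Other listed monocyte and macrophage markers went the other way. Emr1 was highest in GMP 5 (159 CPM against 30.0 in GMP 11 and 79.1 in GMP 19), as was Fcgr1 (2.62 against 1.60 and 2.46 CPM). Cd68 was highest in LSK 46 within its group (69.6 CPM). The part of these markers in the spread of Ccr2 was not tested.

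Of the remaining tested receptors, Cxcr5, which leads B cells to follicles, was at 0.786, 0.706 and 0.458 CPM over the LSK-derived libraries, and at 0.287, 0.0594 and 0.264 CPM over the GMP-derived set. The LSK-derived libraries were all higher, but the gene was not called (log2 fold change 1.68 ± 0.54, edgeR adjusted p = 0.0588; 0.0244 with sample weights in limma voom, in a range up to 0.166). Its exons overlap those of Bcl9l on the other strand. Cxcr2, the neutrophil receptor for CXCL1 and its relatives, was at 1.39, 1.14 and 1.33 CPM over the LSK-derived libraries, and at 0.697, 1.13 and 1.06 CPM over the GMP-derived set. It was not called (log2 fold change 0.41 ± 0.27, edgeR adjusted p = 0.310).

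A further 11 genes had 10 or more counts over the 6 libraries but were not tested. Among receptors, Ccr10, a skin-homing receptor, had 4, 6 and 6 counts over the LSK-derived libraries, and 0, 2 and 0 over the GMP-derived set. It was called by edgeR with no low-count filter but not by DESeq2. Ccr9, the receptor for CCL25, had 18 counts in LSK-derived and 5 in GMP-derived cells, and Ccr4 had 11 and 5. Xcr1 (16 and 12) and Cxcr6 (8 and 9) were about even by counts, although the GMP-derived libraries were sequenced more deeply, and Cxcr3 had 4 and 17. Among ligands, Ccl24 (13 and 15) and Cxcl16 (16 and 19) were of the same order in both groups, Ccl17 had 3 and 14, Cxcl9 had 2 and 17, and Ccl7 had 4 and 60. The other 11 untested genes had 1 to 9 counts each. The 18 genes at 0 were 16 ligands, among them the neutrophil attractants Cxcl1, Cxcl3 and Cxcl5, and the receptors Ccr8 and Cxcr7.

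Genes related to chemokines but named otherwise were read beside them. Cmtm3 and Cmtm7, which encode membrane proteins with a chemokine-like name, were higher in the GMP-derived libraries, Cmtm3 at 7.12 ± 1.85 against 30.7 ± 4.46 CPM (log2 fold change -2.10 ± 0.21, edgeR adjusted p = 0.00120) and Cmtm7 by 1.26-fold (adjusted p = 0.0389). The call of Cmtm7 was lost without LSK 44, LSK 46, GMP 5 or GMP 19 (adjusted p up to 0.138, in a range from 0.00828). Ccrl2, an atypical receptor, was at 1.75, 2.47 and 1.96 CPM over the LSK-derived libraries, and at 3.36, 2.91 and 3.75 CPM over the GMP-derived set. It was not called (edgeR adjusted p = 0.0626), nor were Mif, a cytokine that also binds CXCR4 (191 against 206 CPM), its receptor gene Cd74 (19.6 against 5.65 CPM, adjusted p = 0.0870; 0.0436 without GMP 5), Cklf and Dpp4, a protease that cuts CXCL12. The platelet chemokine genes Pf4 and Ppbp were not tested, with 105 and 92 counts in the LSK-derived libraries, most in LSK 44 and LSK 46, and 5 each in the GMP-derived ones. The megakaryocyte marker Itga2b was likewise at 28.7, 9.30 and 73.1 CPM over the LSK-derived libraries, and at 10.9, 0.505 and 0.733 CPM over the GMP-derived set. Of 5 tested megakaryocyte markers, 1 was higher in each group (Vwf and Itgb3), and the list without Pf4 and Ppbp summed to 22.1 to 99.9 CPM against 14.8 to 27.25 CPM.

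Genes that carry receptor signals were called about as often as all genes. Of 51 tested genes of receptor signalling, desensitisation and RGS proteins, 38 did not pass, 5 were higher in LSK-derived and 8 in GMP-derived cells, with a median log2 fold change of -0.09. The shares over all tested genes were 11.8% and 13.9%, so the count says nothing particular to these genes. Without LSK 46 the count of genes higher in the LSK-derived libraries was 2. That of genes higher in the GMP-derived libraries was 2 without LSK 44 and 3 without LSK 46. The inhibitory G protein genes Gnai2 (551 against 598 CPM) and Gnai3 (362 against 437 CPM) were not called.

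Arrb1, which encodes a beta-arrestin that uncouples and internalises receptors, had the smallest adjusted p among them. It was at 36.7, 29.9 and 39.7 CPM over the LSK-derived libraries, and at 104, 90.6 and 135 CPM over the GMP-derived set. The groups did not overlap, and the difference was 3.11-fold (log2 fold change -1.64 ± 0.17, edgeR adjusted p = 0.00178, called in all 12 alternatives). Of the receptor kinases, Adrbk2 (GRK3) was higher in the LSK-derived libraries at 4.43 ± 2.11 against 0.334 ± 0.364 CPM, Grk6 was 1.30-fold higher there, and Grk5 was 2.24-fold higher in the GMP-derived ones. Each of these 3 lost its call without LSK 46 (adjusted p = 0.0715, 0.0526 and 0.130), and Adrbk2 and Grk5 also without LSK 44 and GMP 19 (up to 0.0902 and 0.137). Grk5 lost it also without GMP 5 (0.0536) or GMP 11 (0.0518) and with limma voom (0.0585), and the log2 fold change of Adrbk2 rose from 3.80 to 5.0 without GMP 5. Rgs18 and Rgs19, which shorten G protein signals, were 1.64- and 1.24-fold higher in the GMP-derived libraries, calls lost without LSK 44 or LSK 46 (adjusted p up to 0.0808 and 0.116). Rgs19 was kept in 1 of the 6 fits without a library.

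Among effectors, Elmo1, which with DOCK2 activates Rac, was 1.49-fold higher in the LSK-derived libraries (269.5 ± 29.4 against 181 ± 1.57 CPM, edgeR adjusted p = 0.00520). Rasgrp2, an activator of Rap1, was 1.49-fold higher in the same direction (adjusted p = 0.0109), and Jak2 was 1.62-fold higher (0.0188; lost without LSK 46 or GMP 11, up to 0.0645). The GTPase genes Rap1b (1.28-fold), Rap1a (1.35-fold) and Rac2 (1.37-fold) and the G protein gamma subunit gene Gng2 (1.79-fold) were higher in the GMP-derived libraries. Rap1b was called in all 12 alternatives, whereas Gng2 and Rac2 lost their calls without LSK 44 or LSK 46 (adjusted p up to 0.0596 and 0.0642) and Rap1a without LSK 44 (0.0572). Dock2, which was at 369 and 363 CPM, was not called.

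**Figure D4:**
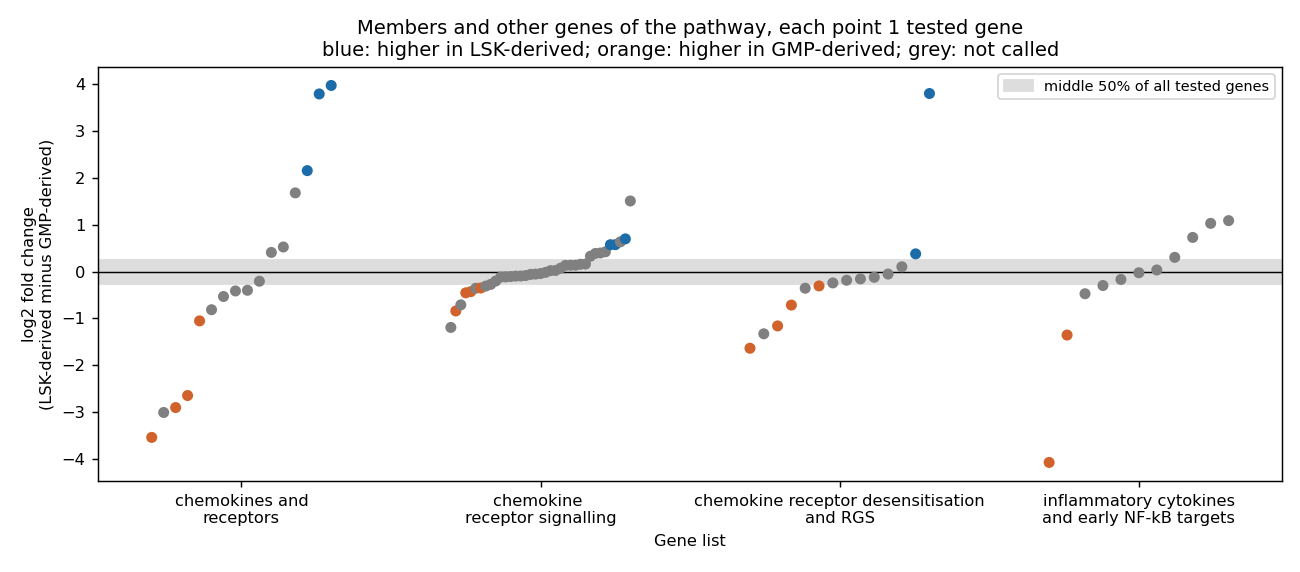
Log2 fold change (LSK-derived minus GMP-derived, y axis) of each tested gene in 4 lists, with the grey band for the middle 50% of all tested genes (-0.27 to 0.24). Most signalling genes lie in or near the band, and the chemokine and receptor genes spread from -3.54 to 3.97.

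Inflammatory cytokine genes and early targets of NF-kB were read in the same way. Of 11 tested genes of 24 listed, 2 were higher in the GMP-derived libraries, 0 in the LSK-derived ones, and 9 did not pass, with a median log2 fold change of -0.03, a count not set apart from the 25.7% of all tested genes. Icam1, an adhesion molecule induced by NF-kB, was at 14.2 ± 3.37 against 36.3 ± 4.84 CPM (log2 fold change -1.35 ± 0.19, edgeR adjusted p = 0.00364, called in all 12 alternatives). Il1rn, which encodes the interleukin-1 receptor antagonist, was at 0.786, 1.73 and 0.333 CPM over the LSK-derived libraries, and at 5.04, 11.8 and 31.9 CPM over the GMP-derived set. All GMP-derived libraries were higher, GMP 19 most of all. Its log2 fold change of -4.07 ± 0.87 (edgeR adjusted p = 0.0193) was -3.12 without GMP 19 and -4.91 without LSK 45. The call was lost with limma voom, with no filter and without LSK 44 or LSK 46 (adjusted p up to 0.0786, in a range from 1.56e-04). Tnf (8.49 against 8.63 CPM) and the NF-kB feedback genes Nfkbia (22.3 against 30.9 CPM) and Tnfaip3 (5.87 against 6.61 CPM) were not called.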

How the data were processed

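The deposited file holds raw counts from the authors, with genes as rows and libraries as columns. The submitters' processing notes list mm9, HTSeq 0.6.1, STAR 2.4 and DESeq2 without saying what each did. The annotation and the strand setting were not given in the sources used here. The labels' protocols name TRIzol extraction and the TruSeq RNA kit.

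Genes were selected by symbol; 57 matched, of which 1 is not reported here and enters no count of members. The whole table was fitted with edgeR 4.0.16 in R 4.3.3 (filterByExpr with a minimum count of 10, TMM, robust glmQLFit, glmQLFTest, no covariate) and p-values adjusted over 13406 genes. The SE is the absolute log2 fold change over the root of F. CPM uses TMM-scaled totals. Alternatives were no filter, RLE and upper-quartile scaling, DESeq2 1.42.0, limma 3.58.1 voom with and without sample weights, and leaving out each library. On simulated data for this comparison (13226 genes), 50% of genes changed 2-fold and 83% of those changed 4-fold were recovered. There 100 genes were changed by each fold, drawn at random over all levels, whereas 25.7% of tested genes were called in the data. The rates therefore do not give the power for the genes described here, several of which had few counts.

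Exon lengths and overlap came from GENCODE M21 (55 of 56 symbols), gene order (54) and promoters (40) from RefSeq GRCm38.p6, a build other than mm9, so no coordinates were joined to the counts; overlap was checked for the 56 genes alone. The interferon motif was shortened by 1 base after a first search. Members and lists were chosen with earlier results of these data known. All tested members apart from that gene were named, untested members with 10 or more counts by their counts, and other pathway genes by smallest p (up to 4 per list and direction) or, for atypical receptors and chemokine-like genes, if tested. Other untested or uncalled genes named, and markers named beside a result, were chosen after their values were seen or as defining markers.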

Additional observations from a re-analysis of the deposited data

How the results depend on the processing

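RLE and upper-quartile scaling shifted the median log2 fold change of all genes by -0.002 and 0.026 and gave the same 7 chemokine and receptor genes as TMM, as did limma voom. Leaving out a library gave 1 (without GMP 19) to 3 chemokine and receptor genes higher in the LSK-derived and 3 to 5 higher in the GMP-derived libraries (3 and 4 with all), 770 to 1523 and 973 to 1944 of all genes (1577 and 1867), and 2 to 6 and 2 to 8 receptor signalling genes (5 and 8). Fewer libraries enter those fits. A test against a 1.5-fold minimum called 2 genes higher in the LSK-derived libraries (Cx3cl1 and Cx3cr1) and 3 higher in the GMP-derived ones (Ccl3, Ccl4 and Cxcl10). DESeq2 called 6 higher in the GMP-derived libraries, adding Ccl2 and Cxcr4. The log2 fold change changed sign for genes that were not called. That of Ccl6 was 0.08 with sample weights and ran from -0.95 to 0.77 (without GMP 19) in fits without a library. In those fits that of Ccr2 ran from -1.05 to 0.23 (positive without LSK 46, GMP 11 or GMP 19) and that of Mif from -0.22 to 0.01 (without LSK 44). That of Dpp4 ran from -0.33 (without LSK 45) to 1.20, and was -0.29 with sample weights. The cause was not tested. Cx3cr1 and Ccl3 lost their calls with no low-count filter, under which 38 members were tested. No paired analysis was possible because the groups share no replicate numbers. Depth limits the genes with few counts: the 22 above 0 that were not tested, and Cx3cl1, Ccr7 and Cxcl10, at under 3 CPM in every library.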
